A study of Mus musculus with 15 samples.

Results

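The let-7 family is described here across mouse tissues by its 9 mature strands: mmu-let-7a-5p, mmu-let-7b-5p, mmu-let-7c-5p, mmu-let-7d-5p, mmu-let-7e-5p, mmu-let-7f-5p, mmu-let-7g-5p, mmu-let-7i-5p and mmu-miR-98-5p. Names are printed below without the mouse prefix mmu. The strands were listed by name, with earlier results of these data known. They are 9 of the 1558 mature miRNA names with a read in the series, and they held 10.4% of all counted reads. A single library was sequenced for each of 12 adult mouse tissues and 3 embryo stages by AQ-seq, a small RNA method whose adapters carry randomized ends to lower ligation bias. The study asked how uridylation, the addition of U to the 3′ end of a precursor, sets which arm of a miRNA hairpin is used.

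Tissues were set side by side in 3 classes formed from their names. The embryos were those of day 11, day 15 and day 17, with no dissected tissue named in the labels. The nervous class held brain, eye and spinal cord. The other adult class held heart, kidney, liver, lung, salivary gland, smooth muscle, spleen, stomach and testis. The RNA came from a commercial panel (Takara), and neither strain, age, sex, genotype nor the number of animals behind each sample is given in the labels. For the oldest embryo the title gives day 17 and the source field gives day 15, and the title was followed. A class therefore has a spread between tissues or stages, part of which may be technical, and no spread between animals. Since these are bulk samples, fewer cells that hold a miRNA and less of it per cell cannot be told apart.

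Library depth lay between 922137 reads (stomach) and 3161463 reads (brain), except for testis with 148052 reads. Marker miRNAs were highest where the labels place them in liver (hepatocyte marker miR-122-5p, 31.2% of reads), heart (muscle markers, 29.1%), spleen (leukocyte markers, 20.5%), brain (neuron markers, 21.0%), eye (10.1%) and testis (germ cell markers, 6.45%). The smooth muscle library is an exception. Its markers of gut and kidney epithelium took 27.9% of reads, the highest share of all 15 libraries, and its smooth muscle markers took 15.4%, against 26.5% in stomach.

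The let-7 miRNAs are among the most conserved in animals. They were found in the worm as regulators of developmental timing, and in mammals they accumulate as cells differentiate and repress transcripts such as Lin28a, Hmga2 and Igf2bp1. LIN28 binds let-7 precursors and recruits terminal uridylyl transferases, and the oligouridylated precursor is degraded by DIS3L2. Members share their seed, the bases that pair first with a target, and come from several hairpins, some of them transcribed together.

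The 9 mature sequences are shown because the counts separate strands that differ by very few bases. All are 22 bases long, come from RefSeq (GRCm38.p6) and are written 5′ to 3′ with the seed, bases 2 to 8, in capitals.
let-7a-5p: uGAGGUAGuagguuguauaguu
let-7b-5p: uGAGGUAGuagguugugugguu
let-7c-5p: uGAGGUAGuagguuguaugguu
let-7d-5p: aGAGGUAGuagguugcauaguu
let-7e-5p: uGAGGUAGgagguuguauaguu
let-7f-5p: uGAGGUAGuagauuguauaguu
let-7g-5p: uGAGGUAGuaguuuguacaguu
let-7i-5p: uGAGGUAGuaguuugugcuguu
miR-98-5p: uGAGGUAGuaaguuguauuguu

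All 9 carry the same seed, GAGGUAG, so they differ only at base 1 and after base 8. Counted from 1 at the 5′ end, with the let-7a-5p base first, let-7c-5p differs by A19G alone, let-7e-5p by U9G alone and let-7f-5p by G12A alone. For let-7b-5p the changes are A17G and A19G, for let-7d-5p U1A and U16C, for let-7g-5p G12U and U18C, and for miR-98-5p G11A and A19U. The most changed from let-7a-5p is let-7i-5p, with G12U, A17G, U18C and A19U. Of the 36 pairs of members, 4 differ at 1 base, and the most distant pair, let-7d-5p and let-7i-5p, differs at 6. How many mismatches the authors' counting allowed is not given in the sources used here, so exchange of reads between such close members was not tested.

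The members come from 12 hairpins on 7 chromosomes (GRCm38.p6). Mirlet7a-1, Mirlet7f-1 and Mirlet7d lie on the minus strand of chromosome 13, in exons of the long noncoding RNA 6720427I07Rik, 261 and 1714 bases apart. Mirlet7c-2 and Mirlet7b lie 621 bases apart on chromosome 15, in an exon of Lncppara. Mirlet7f-2 and Mir98 lie 785 bases apart on chromosome X, in an intron of Huwe1, a ubiquitin ligase gene. Mirlet7e is at bases 17830352 to 17830444 of chromosome 17, in an intron of Spaca6, with Mir125a 367 bases away. Mirlet7c-1 lies 656 bases from Mir99a on chromosome 16, in an intron of Mir99ahg, and Mirlet7a-2 lies 5211 bases from Mir100 on chromosome 9. Mirlet7g, in an intron of Wdr82 on chromosome 9, and Mirlet7i, on chromosome 10, stand alone. Mature let-7a-5p, let-7c-5p and let-7f-5p each have 2 hairpins that the counts of these strands do not separate.

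The summed family was lower in all 3 embryos than in all 12 adult libraries. It took 3.52% of miRNA reads at day 11 (95% exact interval 3.49% to 3.55%), 7.79% at day 15 and 4.30% at day 17 (4.27% to 4.32%). In the nervous tissues it took 14.8% in brain, 14.4% in spinal cord and 9.01% in eye. Among the 9 other adult tissues its lowest share was 8.06% in smooth muscle, its median 9.73% in liver and its highest 15.7% in kidney. The class means were 5.20% ± 2.27 in embryos (SD, n = 3) and 11.2% ± 2.54 in other adult tissues (SD, n = 9), a difference of -5.99 percentage points. For nervous tissues the mean was 12.7% ± 3.24 (SD, n = 3), which is 1.55 points above the other adult mean, a gap smaller than the spread within either class. With 1 library left out this gap lay between 0.52 and 3.42 points. When the family sum was scaled by TMM, the trimmed-mean scaling of edgeR, the difference was -12.9 points for embryos and, turned in direction, -3.85 points for nervous tissues. A sum over members is given as a description, without a p-value.

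Ordered by level, kidney came first, then brain, spinal cord, stomach, salivary gland, lung, liver, heart, spleen, testis, eye, smooth muscle and the embryos of day 15, day 17 and day 11. With exact binomial intervals, which cover counting error only, the neighbours stomach and salivary gland overlapped, as did testis and eye. A share of reads also moves with what else a library holds: miR-122-5p alone took 31.2% of reads in liver, and without it the family took 14.1% of the reads left there.

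**Figure D1:**
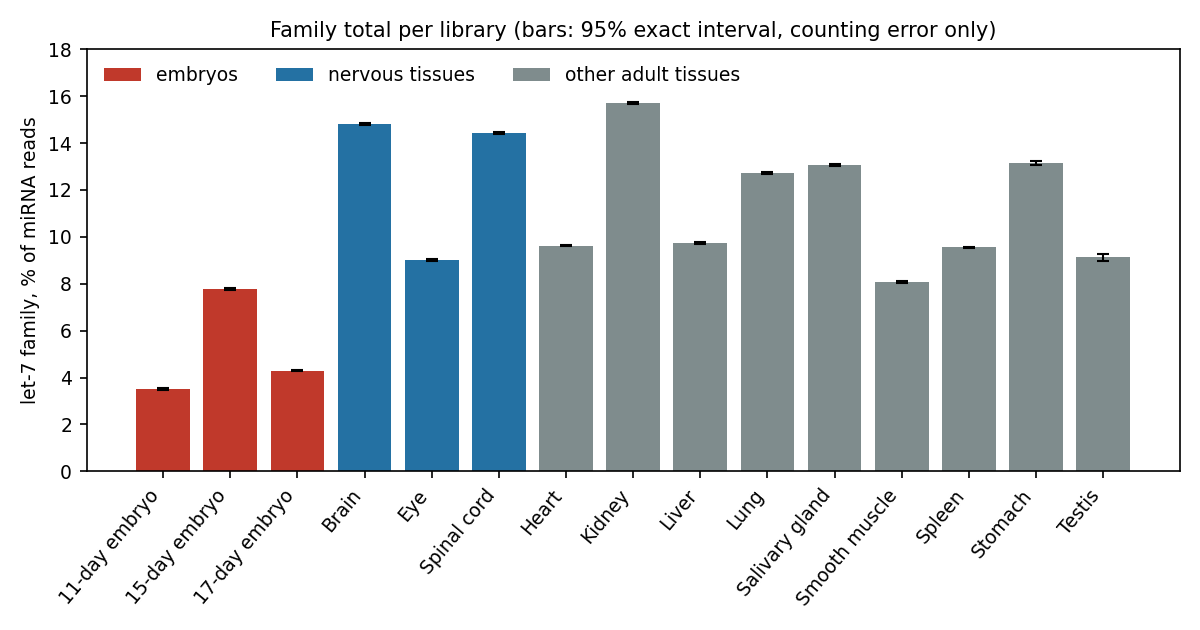
Percent of miRNA reads in the 9 let-7 members (vertical axis) for each library, with embryos in red, nervous tissues in blue and other adult tissues in grey. Bars start at 0 and error bars are 95% exact binomial intervals, which cover counting error only. The 3 embryos, at 3.52% to 7.79%, stand below every adult library, and kidney is highest at 15.7%.

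Across the 3 embryo stages the family did not move in 1 direction. It stood at 35186 RPM (reads per 1000000 miRNA reads of the library) at day 11, 77872 at day 15 and 42950 at day 17. Day 15 over day 11 gave a ratio of 2.21, and day 17 over day 15 gave 0.552. With 1 library a stage these ratios have no replicate check, and the label of the oldest embryo is uncertain as stated above. Erythroid miR-451a was the most abundant name at day 17 (7.62% of reads), while neural miR-9-5p was the most abundant at day 11 (6.32%) and day 15 (5.97%). Markers of several cell types rose with the family from day 11 to day 15, but did not fall with it at day 17. At day 11, day 15 and day 17 the hepatocyte marker took 0.106%, 1.11% and 1.21% of reads. The 4 muscle markers took 0.387%, 2.16% and 2.26%, and the 3 leukocyte markers 0.295%, 0.889% and 0.989%. The 3 erythroid markers took 3.49%, 7.26% and 9.63%, and the 3 neuron markers 7.38%, 7.19% and 3.98%. None of these markers was at 0. Their part in the family's share was not tested.

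All members but let-7e-5p were highest at day 15, and they differed in the size of the steps. For let-7i-5p the level was 3953 RPM at day 11, 13184 at day 15 and 9157 at day 17, a ratio of 3.33 for day 15 over day 11. The level of let-7d-5p was 2063 RPM at day 11, 6091 at day 15 and 4759 at day 17. These were the members whose day 17 level was at least 2-fold above day 11, 2 of 9, where 17.2% of all names tested met that fold. The exception was let-7e-5p, with 4593 RPM at day 11, 4488 at day 15 and 1593 at day 17. It was the single member at least 2-fold lower at day 17 than at day 11, where 26.2% of all names were. Abundant let-7a-5p, with 8112 RPM at day 11, 16050.4 at day 15 and 7238 at day 17, ended near its first level, as did let-7c-5p with 7113, 13791 and 6673 RPM in the same order.

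From day 11 to day 15, 6 of 9 members were at least 2-fold higher (11% of all names), and none was 2-fold lower (23.2%). From day 15 to day 17, 5 of 9 were at least 2-fold lower (5.64% of all names) and none was 2-fold higher (6.37%). These 5 were let-7a-5p, let-7c-5p, let-7e-5p, let-7f-5p and miR-98-5p. The lowest ratio, 0.355, was that of let-7e-5p, and the highest, 0.796, that of let-7b-5p.

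**Figure D2:**
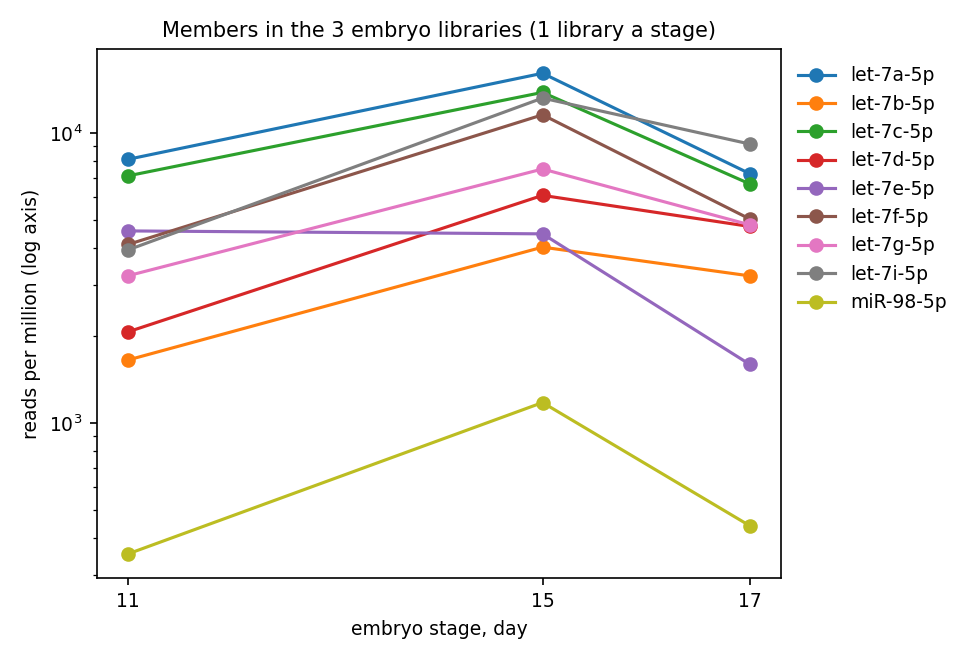
Level of each member in RPM (log axis) against embryo day, 1 library a stage, with lines joining the same member and no error bars because no stage was repeated. Most lines peak at day 15, while let-7e-5p is nearly level from day 11 to day 15 (4593 and 4488 RPM) and reaches 1593 RPM at day 17.

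Within the family, makeup is given as a percent of family reads, which does not depend on how a library is scaled. All members have the same length. In adult tissues let-7c-5p was usually the most abundant member: it led in 9 of 15 libraries, namely the 3 nervous tissues, heart, kidney, lung, salivary gland, smooth muscle and testis. Liver and spleen were led by let-7f-5p (23.0% and 22.8%), and stomach by let-7b-5p (35.5%). Embryos of day 11 and day 15 were led by let-7a-5p (23.1% and 20.6%), and the day 17 embryo by let-7i-5p (21.3%). The least abundant member in every library was miR-98-5p, at 0.173% in stomach to 1.51% in the day 15 embryo.

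Single tissues differed in the members that followed. In brain let-7c-5p (25.2%) was followed by let-7a-5p (17.5%) and let-7f-5p (13.4%), and spinal cord kept this order with 27.3%, 17.5% and 13.5%. Eye was more even, at 20.9%, 19.7% and 17.8% for the same 3 members. Kidney and smooth muscle had let-7b-5p in second place, at 20.1% and 21.1%.

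Liver had nearly equal let-7f-5p (23.0%) and let-7a-5p (22.4%), and the lowest let-7e-5p of all libraries (0.599%, exact 95% interval 0.563% to 0.637%). Spleen had let-7g-5p after let-7f-5p and let-7a-5p (14.4%), the highest let-7i-5p of the adult libraries (12.3%) and the lowest let-7b-5p of them (8.71%). Lung came next in let-7i-5p with 10.4%. Salivary gland had let-7g-5p at 14.5%, level with spleen within counting error, and let-7d-5p at 5.43%, and heart the highest let-7d-5p of the adult libraries (9.0%). Testis had let-7c-5p at 25.8% and let-7a-5p at 20.4%, and its let-7e-5p share of 1.70% rests on 229 reads (exact 95% interval 1.48% to 1.93%).

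How much a member varied differed widely. The share of let-7a-5p varied least, with its highest value 1.63 times its lowest (14.1% in stomach, 23.1% at day 11), followed by let-7d-5p at 2.04 and let-7c-5p at 2.30 times. Far wider was let-7e-5p, at 0.599% in liver and 13.1% at day 11, a ratio of 21.8. Ratios for miR-98-5p, let-7i-5p and let-7b-5p were 8.72, 8.10 and 7.58. The members with the steadiest and the widest share, let-7a-5p and let-7e-5p, differ at a single base.

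**Figure D3:**
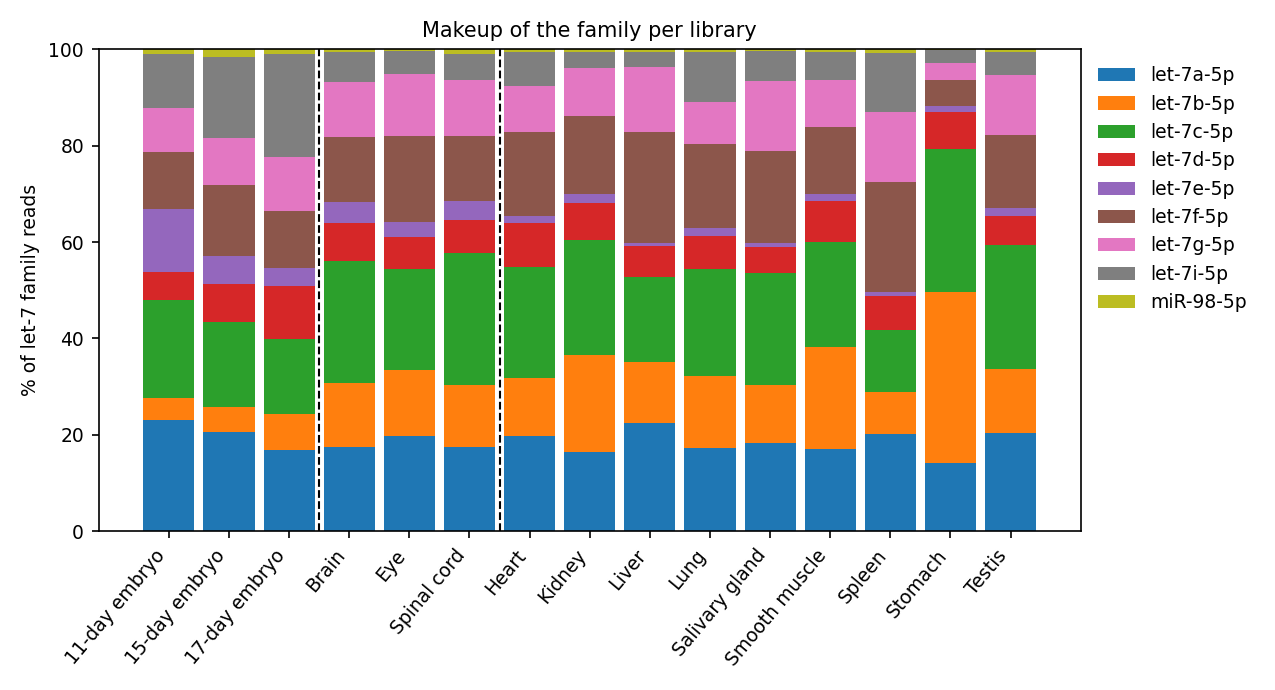
Stacked bars give the percent of let-7 family reads (vertical axis, 0 to 100) held by each member in each library, with dashed lines between embryos, nervous tissues and other adult tissues. The purple band of let-7e-5p is widest at day 11 (13.1%), the grey band of let-7i-5p is widest at day 17 (21.3%), and the orange band of let-7b-5p is widest in stomach (35.5%).

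In embryos the family was richer in let-7e-5p, let-7i-5p and miR-98-5p and poorer in let-7b-5p than in the other adult tissues. This was tested with edgeR's quasi-likelihood test on counts, with family reads as the library size and p-values adjusted over all 693 names tested (Benjamini-Hochberg). On that scale 3 of 9 members were higher, where 59.5% of all names were, and 1 of 9 was lower, where 1.88% of all names were. The family total in the denominator is itself lower in embryos, which raises names outside the family on this scale. The median log2 fold change was 2.72 for all names and 0.13 for members. Neither count is therefore a result about the members as a group, and the adjusted p-values below come from the same pool of names.

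The share of let-7e-5p was 13.1% at day 11, 5.76% at day 15 and 3.71% at day 17. In other adult tissues it was 0.599% at lowest (liver), 1.35% at the median and 1.94% at highest (kidney). The 2 classes did not overlap, as 44.4% of all names did with embryos above. Per family read the log2 fold change was 2.56 ± 0.44 (SE, adjusted p = 0.00011, edgeR). Without the day 11 embryo it was 1.90 and stayed past the threshold of 0.05.

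The share of let-7b-5p was 4.69% at day 11, 5.19% at day 15 and 7.48% at day 17, against 8.71% (spleen), 13.3% and 35.5% (stomach) as the lowest, median and highest of the other adult tissues. All embryos lay below all other adult tissues, as 1.15% of names did. That background is low in part because the lower family total of embryos raises names outside the family on this scale. The log2 fold change per family read was -1.53 ± 0.47 (SE, adjusted p = 0.011, edgeR), and without the day 11 embryo the adjusted p was 0.061. The hairpin neighbour of let-7b-5p, the let-7c-2 hairpin, yields the same mature strand as let-7c-1. For let-7c-5p the embryo shares of 20.2%, 17.7% and 15.5% overlapped the other adult range of 12.8% to 29.6%, and its log2 fold change of -0.32 ± 0.34 did not pass (adjusted p = 0.42, edgeR).

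For let-7i-5p the embryo shares were 11.2%, 16.9% and 21.3% at day 11, day 15 and day 17. The other adult shares were 2.63% at lowest (stomach), 5.70% at the median and 12.3% at highest (spleen), so the day 11 embryo lay inside their range. Its log2 fold change per family read was 1.41 ± 0.46 (SE, adjusted p = 0.015, edgeR), and it no longer passed when the day 17 embryo was left out (adjusted p = 0.079). The rare miR-98-5p took 1.01%, 1.51% and 1.03% in embryos, against at most 0.785% in other adult tissues (spleen). Its log2 fold change was 1.18 ± 0.44 (SE, adjusted p = 0.031, edgeR). That call was lost without any single embryo, with adjusted p-values of 0.057, 0.13 and 0.061 without day 11, day 15 and day 17. The other 5 members, let-7a-5p, let-7c-5p, let-7d-5p, let-7f-5p and let-7g-5p, did not pass, and their log2 fold changes lay from -0.39 (let-7f-5p) to 0.20 (let-7d-5p).

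In nervous tissues let-7e-5p was the one member whose share passed the test. It took 4.22% of family reads in brain, 3.82% in spinal cord and 3.10% in eye, all above the other adult maximum of 1.94%, as 22.8% of all names were. The log2 fold change per family read was 1.55 ± 0.45 (SE, adjusted p = 0.014, edgeR). This was 1 of 9 members higher, where 30.4% of all names were, and none was lower, where 6.64% were. Without brain the adjusted p was 0.064. The remaining 8 members had log2 fold changes from -0.32 (let-7b-5p) to 0.33 (miR-98-5p), none of which passed. The nervous and the embryo comparison share their 9 other adult libraries.

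Abundance was tested separately, on all counts of a library. Fold changes then depend on the scaling. TMM put the median of all names at 0.10 (log2) for embryos over other adult tissues, while scaling to total counts put it at 1.38, a shift of 1.28. For nervous tissues the medians were -0.21 and 0.26. Each log2 fold change below is therefore given under both scalings.

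In embryos 6 of 9 members were lower than in other adult tissues under TMM, where 17.2% of all names were lower. None was higher, where 27% of all names were. The median member stood at -2.47, against 0.10 for all names. Under total counts 5 of 9 were lower (6.06% of all names) and 1 was higher (41.4%), with the median member at -0.98, against 1.38.

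The strongest change was that of let-7b-5p, with 1650 RPM at day 11, 4039 at day 15 and 3215 at day 17. Its other adult levels were 8312 RPM at lowest (spleen), 15955 at the median (salivary gland) and 46736 at highest (stomach). It was the 1 member of 9 whose embryos all lay below all other adult tissues in RPM, as 4.47% of names did. The log2 fold change was -4.15 ± 0.70 under TMM (adjusted p = 0.00017) and -2.72 ± 0.61 under total counts (adjusted p = 0.0015, both edgeR).

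For let-7c-5p the embryo levels of 7113, 13791 and 6673 RPM compared with 12253 (spleen), 23512 and 38869.5 RPM (stomach) as the lowest, median and highest other adult values. The day 15 embryo thus lay inside the other adult range. Its log2 fold change was -2.92 ± 0.56 under TMM (adjusted p = 0.00055) and -1.48 ± 0.47 under total counts (adjusted p = 0.017, both edgeR). Likewise let-7a-5p averaged 10467 ± 4855 RPM in embryos (SD, n = 3) and 20292 ± 3514 RPM in other adult tissues (SD, n = 9), with log2 fold changes of -2.47 (adjusted p = 0.0013) and -0.98 (adjusted p = 0.040, both edgeR). Lower under both scalings were also let-7f-5p (-2.93 and -1.43) and let-7g-5p (-2.68 and -1.20). Under TMM let-7d-5p fell by 2.40 on the log2 scale (adjusted p = 0.0027), while under total counts its value of -0.90 did not pass (adjusted p = 0.097, both edgeR).

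Apart from this pattern stood let-7e-5p, let-7i-5p and miR-98-5p, whose direction turned with the scaling. The embryo levels of let-7e-5p, 4593, 4488 and 1593 RPM, set against 583 (liver), 1358 and 3053 RPM (kidney) in other adult tissues, gave -0.15 ± 0.50 under TMM (adjusted p = 0.83) and 1.27 ± 0.50 under total counts (adjusted p = 0.047, both edgeR). The values for let-7i-5p were -1.15 (adjusted p = 0.15) and 0.36 (adjusted p = 0.57), and those for miR-98-5p -1.28 (adjusted p = 0.088) and 0.19 (adjusted p = 0.79, all edgeR). DESeq2 called miR-98-5p lower (-1.28, adjusted p = 0.025), as did edgeR under TMM without the day 15 embryo (-2.21, adjusted p = 0.022) and without testis (-1.37, adjusted p = 0.049). Without the day 15 embryo the TMM fold changes of let-7a-5p, let-7c-5p and let-7f-5p were -3.12, -3.54 and -3.73.

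In nervous tissues none of the 9 members passed in either direction under TMM with edgeR, where 41% of all names did (28.4% higher and 12.6% lower). At an unadjusted p under 0.05 there was 1, let-7e-5p, and DESeq2, which called 53.6% of all names, also called 1 member, let-7e-5p (adjusted p = 0.025). Under total counts edgeR called 1 of 9 higher (32.6% of all names) and none lower (8.08%). It measured 6246 RPM in brain, 2789 in eye and 5505 in spinal cord, against at most 3053 RPM in kidney. The log2 fold change of let-7e-5p was 1.19 ± 0.47 under TMM (adjusted p = 0.053) and 1.71 ± 0.49 under total counts (adjusted p = 0.012, both edgeR). For let-7b-5p and let-7f-5p the values were negative under both scalings and did not pass, while those of let-7a-5p, let-7c-5p, let-7d-5p, let-7g-5p, let-7i-5p and miR-98-5p were negative under TMM, positive under total counts and passed under neither.

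**Figure D4:**
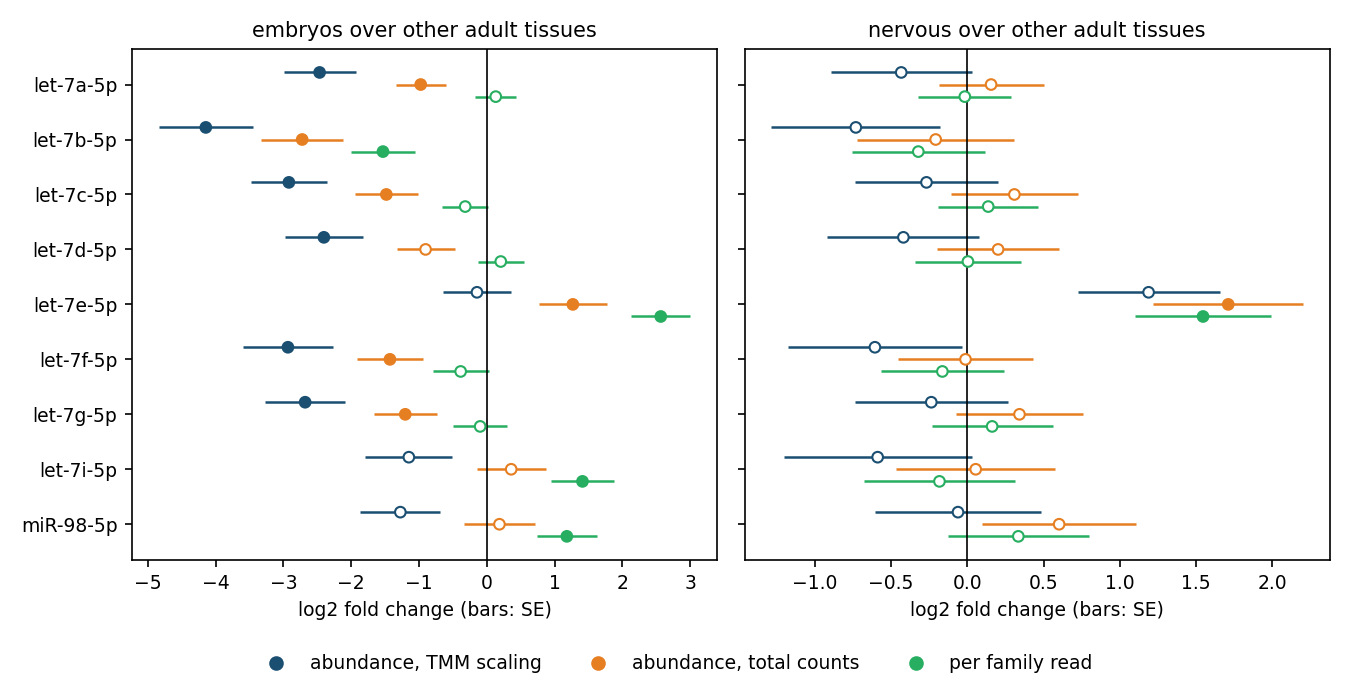
Log2 fold changes of each member (horizontal axis, bars are SE) for embryos over other adult tissues (left) and nervous over other adult tissues (right), for abundance under TMM (dark blue), abundance under total counts (orange) and level per family read (green). Filled points have an edgeR adjusted p under 0.05 and open points do not. In the left panel let-7b-5p is negative and filled on all 3 scales (-4.15, -2.72 and -1.53), and let-7e-5p moves from -0.15 to 2.56.

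The hairpin of let-7e lies beside that of miR-125a, and miR-99b is known from the same primary transcript. Across the 12 adult libraries the level of let-7e-5p (log2 CPM, that is RPM scaled by TMM) had a Pearson r of 0.81 with miR-99b-5p and of 0.81 with miR-125a-5p. The libraries share their total, so this is a description. Over all 15 libraries the values were 0.61 and 0.73.

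Neither in embryos nor in adult tissues did the strands of this transcript keep 1 ratio. Reads of let-7e-5p per miR-99b-5p read were 0.686, 1.37 and 0.451 at day 11, day 15 and day 17. Of the 12 adult ratios 9 were above all of these: they were 3.11 in brain, 1.40 in eye and 2.41 in spinal cord, and 1.02 (stomach) to 2.17 (salivary gland) in other adult tissues. Per miR-125a-5p read, let-7e-5p gave 0.636, 0.937 and 0.277 at the 3 stages, 0.286 to 0.455 in nervous tissues and 0.123 to 0.417 in other adult tissues. The lowest of these ratios, 0.123, was in stomach, where miR-125a-5p reached 13433 RPM beside 1646 RPM of let-7e-5p.

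Of the 11 listed strands of miR-99, miR-100 and miR-125, which share transcripts with let-7 hairpins, 3 rose in embryos under TMM and none fell. They were miR-100-3p, miR-125b-1-3p and miR-99b-3p, where 27% of all names rose and 17.2% fell. Total counts gave 5 higher, where 41.4% of all names were, and none lower (6.06%), so these shares are near the background for higher names. In nervous tissues miR-100-5p (log2 fold change 1.44, adjusted p = 0.045) and miR-125b-1-3p (1.98, adjusted p = 0.015, both edgeR) rose under TMM, where 28.4% of all names rose, and total counts gave 4 of 11 higher, where 32.6% of all names were.

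In stomach the family had a makeup unlike that of the other 8 other adult tissues. There let-7b-5p took 35.5% of family reads (exact 95% interval 35.3% to 35.8%), against 8.71% to 21.1% in the other 8, and let-7c-5p took 29.6%, against 12.8% to 25.8%. At the same time let-7f-5p took 5.29%, against 13.8% to 23.0%, and let-7g-5p took 3.66%, against 8.78% to 14.5%. Shares of let-7a-5p (14.1%), let-7i-5p (2.63%) and miR-98-5p (0.173%) also lay below the range of the other 8, whose lowest values were 16.4%, 3.25% and 0.451%. Only let-7d-5p and let-7e-5p lay within it. Together let-7a-5p, let-7b-5p and let-7c-5p made up 79.3% of the family in stomach and 41.7% (spleen) to 60.5% (kidney) in the other 8.

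As a level let-7b-5p had 46736 RPM in stomach, against 8312 to 31592 RPM in the other 8, and let-7f-5p had 6960 RPM, against 11167 to 25358 RPM. The 3p strands did not all follow. In stomach let-7b-3p had 105 RPM, the other adult median, and let-7g-3p (54.2 RPM) and let-7i-3p (178 RPM) lay inside the other adult range. The more frequent let-7f 3p strand, let-7f-2-3p (71.6 RPM), also lay inside that range, whose lowest value was 63.1 RPM in smooth muscle. By contrast let-7f-1-3p (15.2 RPM, 14 reads) and miR-98-3p (10.8 RPM, 10 reads) were lowest in stomach among other adult tissues, on few reads. The mature let-7b-5p holds 10 G or C bases, the most of the family, and let-7f-5p and miR-98-5p hold 7, the fewest. Members with 9 went different ways in share: let-7c-5p lay above the range of the other 8, let-7i-5p below it, and let-7d-5p and let-7e-5p within it. With 8 each, let-7a-5p and let-7g-5p both lay below it. The level of smooth muscle markers was also highest in stomach (26.5% of reads), and its library was the shallowest but for testis. The part of base composition, cell makeup or depth in this pattern was not tested, and with 1 stomach library it has no replicate check.

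**Figure D5:**
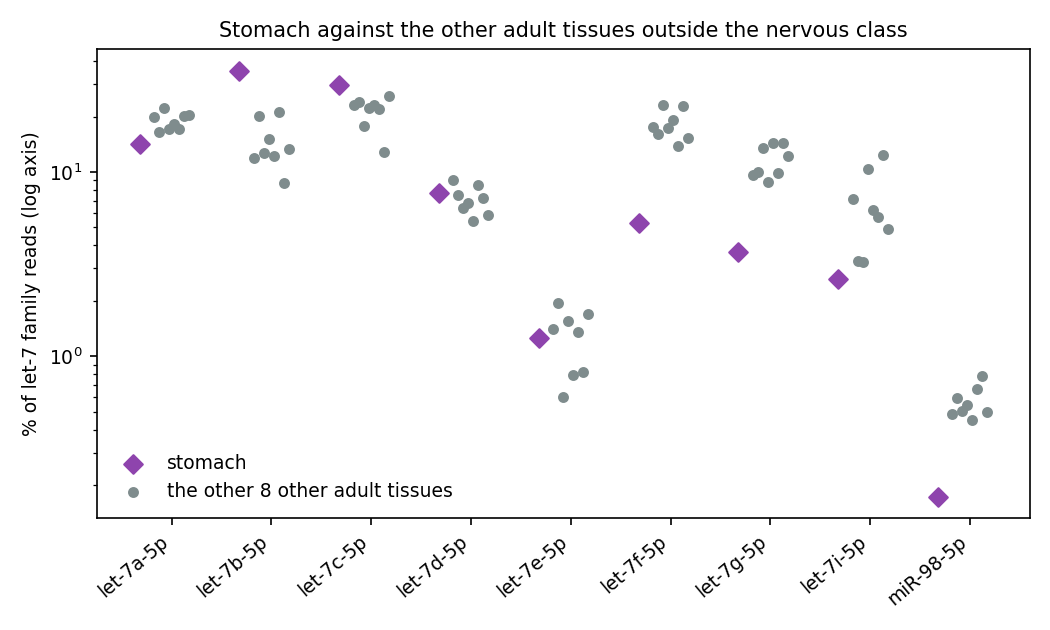
Percent of let-7 family reads (log axis) of each member in stomach (purple diamonds) and in the other 8 other adult tissues (grey points, 1 library each). Stomach is the highest library for let-7b-5p (35.5%) and let-7c-5p (29.6%) and the lowest for let-7a-5p, let-7f-5p, let-7g-5p, let-7i-5p and miR-98-5p.

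Most let-7 hairpins keep the 5p strand and discard the 3p strand, and these libraries show both. As a percent of both strands of a hairpin, the 3p strand had a median over the 15 libraries of 0.561% for let-7g, 0.695% for let-7b, 0.756% for let-7f, 1.26% for let-7e, 2.57% for let-7i and 3.64% for miR-98. For let-7d the 3p strand was far more frequent, with 9.72% at lowest (day 15 embryo), 13.3% at the median and 18.4% at highest (smooth muscle). Its class means were 12.1% ± 2.97 in embryos (SD, n = 3), 13.2% ± 2.27 in nervous tissues (SD, n = 3) and 13.8% ± 2.35 in other adult tissues (SD, n = 9), which differ by less than the spread within a class. In let-7i the 3p share was lowest at day 11 (1.31%) and highest in stomach (4.89%).

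Of the 12 listed 3p strands 7 fell in embryos under TMM, where 17.2% of all names did, and none rose, where 27% did. The 7 include let-7a-1-3p and let-7c-2-3p, which have identical sequences and hold the same reads, so they are not separate observations. Under total counts 1 fell, let-7b-3p (log2 fold change -1.91, adjusted p = 0.0045), and 1 rose, let-7c-1-3p (1.99, adjusted p = 0.031, both edgeR), where 6.06% of all names fell and 41.4% rose. In nervous tissues none of the 12 passed under TMM, where 28.4% of all names rose and 12.6% fell. Under total counts let-7e-3p rose (1.55), where 32.6% of all names rose, and none fell (8.08%). The rare let-7a-2-3p passed the filter on low counts only with brain and spinal cord, where it was high. Its test in nervous tissues is therefore not read.

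The 3p strands separate some hairpins that the 5p strand does not. The let-7f-1 hairpin, of the chromosome 13 cluster, gave 9.23% of the let-7f 3p reads at day 11 (6 of 65 reads, exact 95% interval 3.46% to 19.0%), 25.8% at day 15 and 28.6% at day 17. In adult tissues that share lay between 12.4% in brain and 25.9% in heart. The let-7f-2 hairpin, beside miR-98 on chromosome X, gave the rest.

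The let-7c-1 hairpin, beside miR-99a, was seen through let-7c-1-3p at 27.2 RPM at day 11, 13.6 at day 15 and 16.4 at day 17, from 41, 29 and 43 reads. It had 15.4 RPM in spinal cord, 9.49 in brain and 5.13 in eye. In other adult tissues it had from 0.45 RPM (1 read, spleen) to 13.5 RPM (2 reads, testis). The let-7a-2 hairpin, beside miR-100, was seen through let-7a-2-3p with 9, 3 and 6 reads at day 11, day 15 and day 17 (5.98, 1.40 and 2.29 RPM). Spinal cord had 27 reads (13.0 RPM), brain 18 (5.69 RPM) and eye 3 (1.18 RPM). Heart had 6 reads (2.29 RPM), spleen 2 (0.900 RPM) and salivary gland 1 (0.480 RPM). Testis also had 1 read, which is 6.75 RPM in its shallow library. Kidney, liver, lung, smooth muscle and stomach had no read of it, which allows up to 1.01 RPM in lung (3 reads) and 3.25 RPM in stomach. The strands let-7a-1-3p and let-7c-2-3p have identical sequences, and their counts differed by at most 2 reads in any library, so reads were counted under both names and neither hairpin can be read from them.

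Members ran together to different degrees. Over the 15 libraries (log2 CPM under TMM) the pair let-7f-5p and let-7g-5p had the highest Pearson r, 0.99, followed by let-7b-5p with let-7c-5p and let-7a-5p with let-7f-5p, both at 0.97. Over the 12 adult libraries alone these were 0.95, 0.85 and 0.86. The lowest values over 15 libraries all involved let-7e-5p, with 0.16 for let-7i-5p, 0.22 for let-7f-5p and 0.22 for let-7g-5p, and 0.086, -0.077 and -0.027 over the adult libraries. Pairs of let-7b-5p also had low adult values: -0.048 with let-7g-5p and 0.096 with let-7f-5p, against 0.82 for both over all 15, and 0.025 with miR-98-5p, against 0.63. The 3 embryo libraries share a low family total, so the values over all 15 libraries are descriptions.

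Outside the family, 660 names were ranked by the likeness of their level to the family total. The highest Pearson r over 15 libraries were those of miR-26a-5p (0.94), miR-29a-5p (0.92), miR-29c-3p (0.92), miR-30d-5p (0.91) and miR-101a-3p (0.91). Over the 12 adult libraries they were 0.84, 0.64, 0.66, 0.72 and 0.68, and in unscaled RPM over all 15 libraries they were 0.78, 0.83, 0.82, 0.68 and 0.75. At the other end stood miR-296-3p (-0.91), miR-483-3p (-0.90) and miR-679-3p (-0.88), whose adult values were -0.79, -0.48 and -0.20. The 15 points share TMM factors that range from 0.449 in heart to 2.25 in the day 11 embryo, so these are descriptions.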

How the data were processed

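AQ-seq libraries were made from 5 µg of total RNA with synthetic spike-ins, size-selected on a gel and run on a MiSeq, per the labels' protocols. The authors deposited 1 table of read counts a library, by mature miRNA name. Per the submitters' processing notes, the authors used bcl2fastq 1.8.4, cutadapt, BWA and bedtools with mm10; options, miRNA annotation and the rule for reads with several loci: not given in the sources used here. Spike-ins were not used here. Names with no line in a file were taken as 0. The 46 names with several loci had odd counts in 55.0% of values, against 57.1% for names with 1 locus, so reads were not doubled per locus.

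Counts of all 15 libraries were fitted in 1 model of 3 classes with edgeR 4.0.16 in R 4.3.3 (quasi-likelihood test, TMM, filterByExpr, Benjamini-Hochberg over 693 names, threshold 0.05), and again with family reads as library size. The filter took 13.1% of reads in testis and at most 0.215% elsewhere. Alternatives were total-count and DESeq2 size factor scaling, DESeq2 1.42.0, no filter, other denominators, 12 libraries or all 12 adults, and each library left out. The model was tested on simulated data. A count of 0 allows up to 3 reads, from 0.949 RPM in brain to 20.3 RPM in testis; intervals are exact Clopper-Pearson and cover counting error only. All 9 members matched the RefSeq table. Named were all members, their 3p strands, miR-99, miR-100 and miR-125 strands, seed relatives, and the 5 most and 3 least alike names. The members, classes and lists were chosen with earlier results of these data known.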

Additional observations from a re-analysis of the deposited data

Results flagged for a closer look

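Of 26 series of values tested over the 9 other adult libraries, 2 had a library far from the others, where chance gives about 1 in 20. Both were stomach. For let-7b-5p the stomach share was 35.5% of family reads, and the next highest was 21.1% in smooth muscle. For let-7i the 3p strand made up 4.89% of both strands in stomach, and the next highest was 3.05% in smooth muscle.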

How the results depend on the processing

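No paired analysis was possible because each tissue has 1 library and the numbers within a class follow accession order. Of the results for single members across the settings tried, 667 kept their direction and side of the threshold. With the sign kept, 9 gained a call and 8 lost one, and 27 changed sign. Among those 27, let-7e-5p in embryos under total counts also gained a call (1.27, adjusted p = 0.047, edgeR). Embryos against other adult tissues gave 306 calls in abundance, 255 to 343 with 1 library left out and 157 against all 12 adult libraries. Nervous tissues gave 284, and 186 to 303 with 1 library left out, the lowest without brain. Members called in nervous tissues were 0, but 1 under total counts, DESeq2 size factors and the DESeq2 test, and 0 to 1 with a library left out. Per family read 4 members were called in embryos and 2 to 4 with a library left out, and in nervous tissues 1 and 0 to 1. The family's share under TMM scaling differed from that of other adult tissues by -12.9 points in embryos and -3.85 in nervous tissues. In nervous tissues the direction is turned from 1.55 in reads as counted. TMM divides each share by a factor of its library, so the scaled value is no longer a share of reads. The factors were 1.13 in brain, 0.825 in eye and 1.36 in spinal cord, and 0.449 (heart) to 1.77 (testis) in other adult tissues. Why the factors differ was not tested. With a library left out the difference in reads as counted was -7.29 to -5.15 points in embryos and 0.52 to 3.42 points in nervous tissues.

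Changes of sign in abundance (log2) were these. For embryos, total counts gave let-7e-5p 1.27, let-7i-5p 0.36 and miR-98-5p 0.19, no filter gave let-7e-5p 0.091, and leaving out a library gave let-7e-5p -0.57 to 0.020. For nervous tissues, total counts gave let-7a-5p 0.16, let-7c-5p 0.31, let-7d-5p 0.20, let-7g-5p 0.34, let-7i-5p 0.055 and miR-98-5p 0.60, no filter gave let-7g-5p 0.00039 and miR-98-5p 0.16, and leaving out a library gave miR-98-5p -0.33 to 0.22. Per family read, leaving out a library gave let-7d-5p -0.066 to 0.40 in embryos, and in nervous tissues let-7a-5p -0.075 to 0.023, let-7d-5p -0.080 to 0.059 and let-7i-5p -0.29 to 0.0056. No filter also ended the miR-98-5p call per family read in embryos (adjusted p = 0.081, edgeR). Leaving out both smooth muscle and testis, chosen after seeing the data, changed no call of a member and gave differences in family share of -6.74 points in embryos and 0.808 points in nervous tissues. Depth limits testis most.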

Other observations

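Some names outside the family share or nearly share its seed. The strand let-7k, with the same bases 2 to 8, had at most 4 reads in a library. The strand let-7j has U in place of G at the last seed base, and against let-7i-5p it differs at 1 of 22 bases, G8U counted from the 5′ end, with 2 further bases at its 3′ end. It had 1.33, 2.34 and 1.52 RPM in the embryos of day 11, day 15 and day 17, and 1.58, 0.394 and 0.962 RPM in brain, eye and spinal cord. In other adult tissues it reached 46.1 RPM in lung (137 reads), 25.9 in salivary gland and 21.0 in heart, with 11.8 in kidney and 9.79 in liver. It was as low as in embryos or nearly so in smooth muscle (1.16 RPM), stomach (2.17 RPM) and spleen (3.60 RPM), and had no read in testis, which allows up to 20.3 RPM. In embryos and nervous tissues let-7j had at most 5 reads in a library. It could pass the filter on low counts only through other adult libraries, where it was high. The outcome of a test against that class would be fixed in advance, so none is given. Set against let-7i-5p, a ratio chosen after its values were seen, let-7j reads came to 0.230% to 0.348% in kidney, heart, liver, salivary gland and lung. In every other library with a read they came to at most 0.0627% (stomach), and in brain, where let-7i-5p had 29129 reads, to 0.0172%.

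The strand miR-202-3p, which has the same bases 2 to 8 as let-7j, was read mainly in testis. It had 220 reads there, or 1486 RPM, beside 1547 RPM of let-7e-5p and 453 RPM of miR-98-5p, and at most 3 reads in any other library.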
